A study of Bos taurus with 15 samples.

Results

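Guidance cues and their receptors were examined in cultured bovine granulosa cells (GC), the estradiol-producing cells that line the ovarian follicle. The group held the semaphorins with their plexin receptors, the ephrins with the EPH receptors, and the SLIT proteins with the ROBO receptors. A gene was included when a transcript cluster, the set of array probes for a transcribed locus, carried its symbol alone in the platform annotation. This gave 47 genes (19 semaphorins, 7 plexins, 8 ephrins, 7 EPH receptors, 3 SLITs and 3 ROBOs) with 49 of the 26773 clusters. EFNA5 and EPHB2 had more than 1 cluster and the cluster with the higher mean signal stands for the gene. The cells came from pools of follicles below 6 mm in diameter from abattoir ovaries of animals of any age and cycle stage, were frozen and thawed, and were then cultured for 8 days on collagen without serum, with FSH (20 ng/ml), R3 IGF-1 (50 ng/ml), insulin and androstenedione (2 µM) in every group. RNA of 15 cultures was measured on 15 Bovine Gene 1.0 ST arrays: 5 received sodium L-lactate at 30 mM, 5 received NaCl at 30 mM as vehicle control, which brings in the same amount of sodium, and 5 stayed untreated. Values are log2 signals as the authors deposited them, errors are the SD between the 5 arrays of a group or the standard error (SE) of a difference, and p-values are those of limma, adjusted over all clusters.

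Semaphorins are secreted or membrane-bound proteins that steer growing axons and migrating cells, mostly by repulsion. They bind plexins, whose cytoplasmic part switches off small GTPases of the Ras family, and the secreted class 3 members usually need a neuropilin as co-receptor. Ephrins sit on the cell surface and bind EPH receptor tyrosine kinases on a neighbouring cell, so that both cells receive a signal. SLITs are large secreted ligands of the ROBO receptors. All of these families are also known from the formation of blood vessels, which enter the former granulosa layer when the follicle turns into a corpus luteum.

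In the comparison of L-lactate with NaCl, 2 of the 47 genes were differentially expressed, which required a fold change above 1.5 at an adjusted p under 0.05, against 1.89% of all clusters (1.28% higher and 0.601% lower). Both PLXNA4 and SEMA7A rose. Between L-lactate treated and untreated cells the number was 4 against 3.27% of all clusters (1.93% higher and 1.33% lower), with PLXNA4 and EPHA7 higher and PLXNC1 and PLXND1 lower. Between NaCl treated and untreated cells it was 3 against 1.15% (0.403% higher and 0.743% lower), and PLXNC1, PLXND1 and SEMA5A all fell. Among clusters that carry a single symbol, as the guidance genes do, 2.4%, 3.96% and 1.34% were differentially expressed in these comparisons. The 2, 4 and 3 genes are 4.26%, 8.51% and 6.38% of the 47. The comparisons with untreated cells share the same 5 untreated arrays.

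Smaller differences were more frequent. Without the fold threshold, 22 of the 47 genes passed the adjusted p between L-lactate and NaCl, 16 higher and 6 lower, where 22.2% of all clusters passed (10.7% higher and 11.5% lower). Between L-lactate and untreated cells 24 genes passed, 15 higher and 9 lower, against 27.1% of all clusters (13.3% higher and 13.7% lower). Between NaCl and untreated cells 14 passed, 6 higher and 8 lower, against 11.9% of all clusters (6.13% higher and 5.81% lower). For clusters with a single symbol the shares were 27.3%, 33.3% and 15.1%. The median absolute log2 difference of the genes was 0.145, 0.208 and 0.104 in these comparisons, and that of all clusters 0.0875, 0.102 and 0.0748. With the sign kept, the medians of the genes were 0.05, -0.02 and 0.02, beside -0.01, -0.02 and 0.00 for all clusters. The arrays of the compared groups did not overlap for 21, 25 and 9 of the 47 genes, and for 19.1%, 22.4% and 11% of all clusters. In all, 27 of the genes passed the adjusted p at least once, 11 of them in all 3 comparisons, and 20 never did. The shares of all clusters are known for single comparisons only, so these joint counts have no background beside them.

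**Figure D1:**
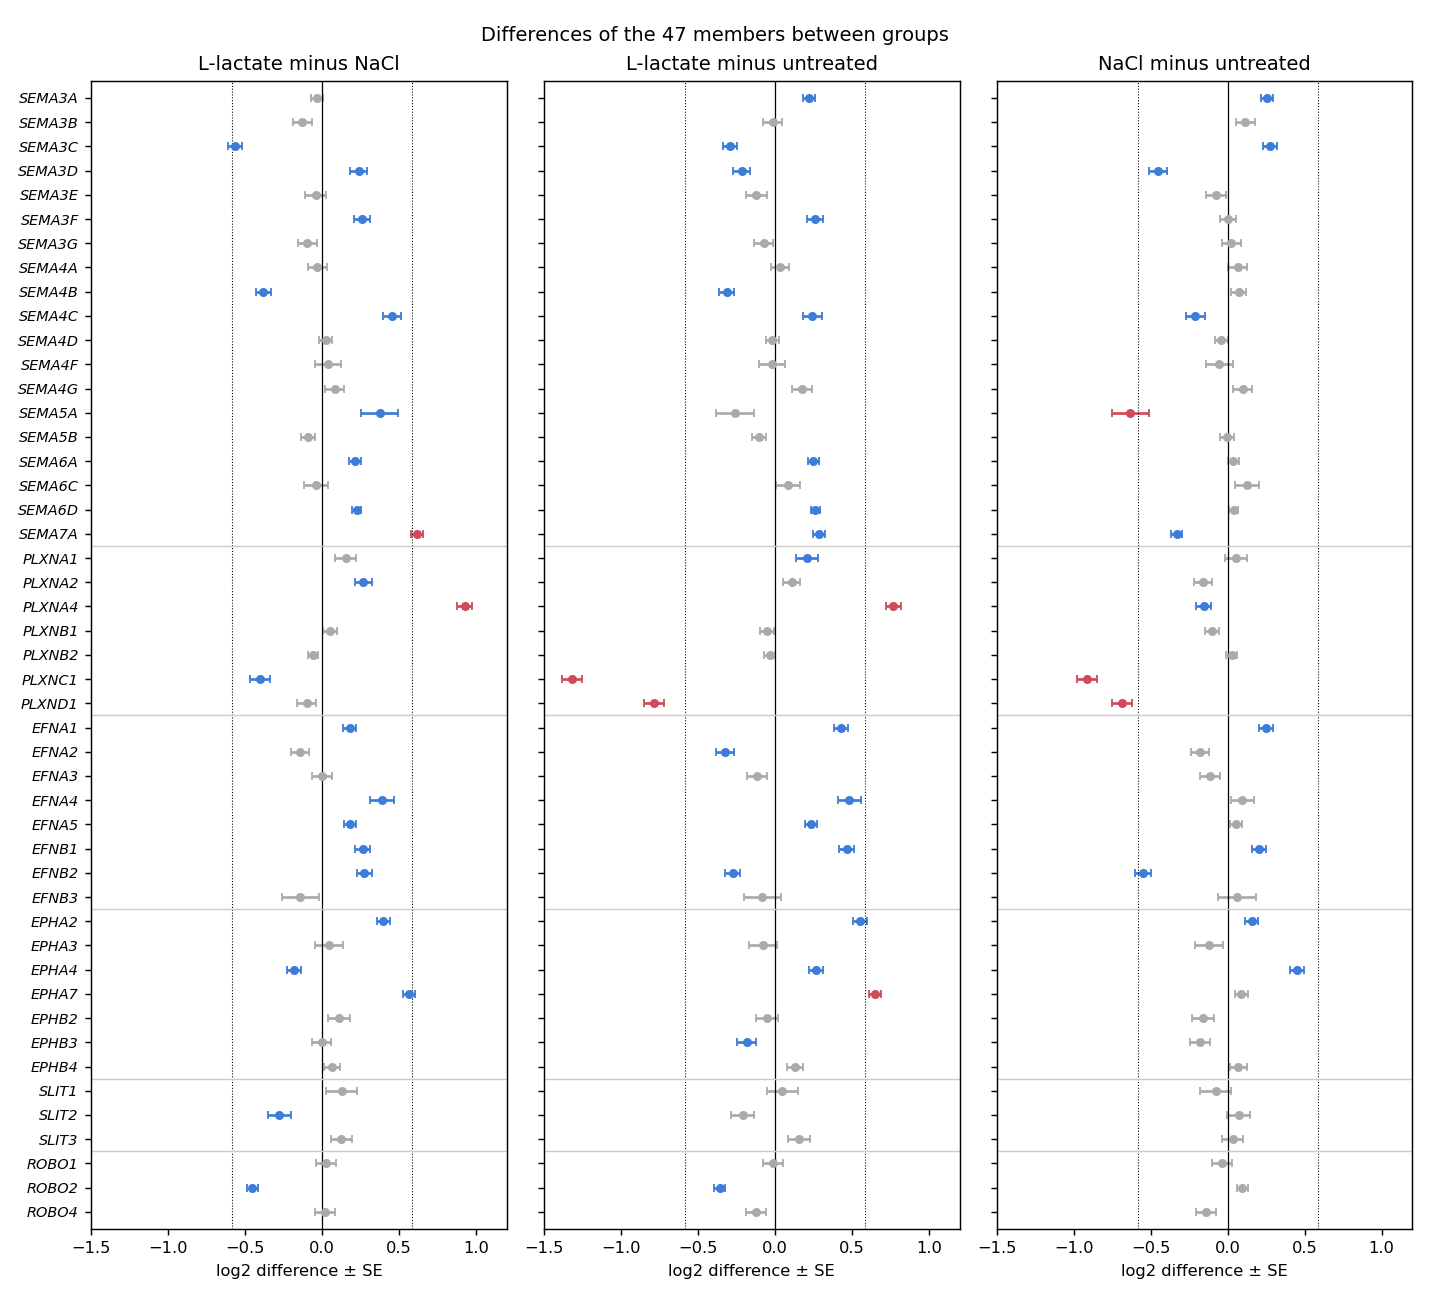
Log2 differences (x axis, point with the SE of limma) of the 47 genes (y axis, families separated by grey lines) for L-lactate minus NaCl, L-lactate minus untreated and NaCl minus untreated, with 5 arrays per group. Red points passed the adjusted p and the 1.5-fold threshold (dotted lines), blue points the adjusted p alone and grey points neither, and PLXNC1 at -1.32 against untreated cells lies farthest from 0.

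Among the ligands, SEMA7A was higher with L-lactate than in either control. It codes for a GPI-anchored semaphorin whose known receptors are plexin C1 and integrin beta 1. The 5 L-lactate arrays read 7.48, 7.49, 7.49, 7.48 and 7.51. NaCl arrays read 6.95, 6.85, 6.85, 6.92 and 6.80, and untreated arrays 7.29, 7.19, 7.17, 7.25 and 7.13. The 3 ranges were separate, with L-lactate at the top and NaCl at the bottom. SEMA7A rose by 0.62 against NaCl (SE 0.04, 1.53-fold, adjusted p = 1.5e-08 by limma). Untreated cells lay in between, so that L-lactate was higher than untreated by 0.28 (adjusted p = 2.8e-05) and NaCl lower than untreated by 0.33 (adjusted p = 2.2e-05), both short of the fold threshold.

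SEMA5A, a membrane semaphorin with thrombospondin repeats, fell with NaCl. Untreated arrays read 6.48, 6.39, 6.57, 6.37 and 6.24 and NaCl arrays 5.75, 6.30, 5.56, 5.82 and 5.46. Of the NaCl arrays, replicate 2 lay within the untreated range and the others below it, and the SD of 0.32 between the NaCl arrays was the largest of any of the 47 genes in any group. The decrease was 0.63 (SE 0.12, adjusted p = 0.0026 by limma), and it was no longer above 1.5-fold without NaCl replicate 3 (0.58) or replicate 5 (0.55). L-lactate arrays, at 6.23, 6.22, 6.20, 6.11 and 5.99, all lay below the untreated arrays, but with a difference of -0.26 that did not pass (adjusted p = 0.14, 95% interval -0.52 to 0.00). Against NaCl, L-lactate was higher by 0.37 (adjusted p = 0.039 by limma) with overlapping arrays. This difference passed in 12 of 22 alternative settings.

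**Figure D2:**
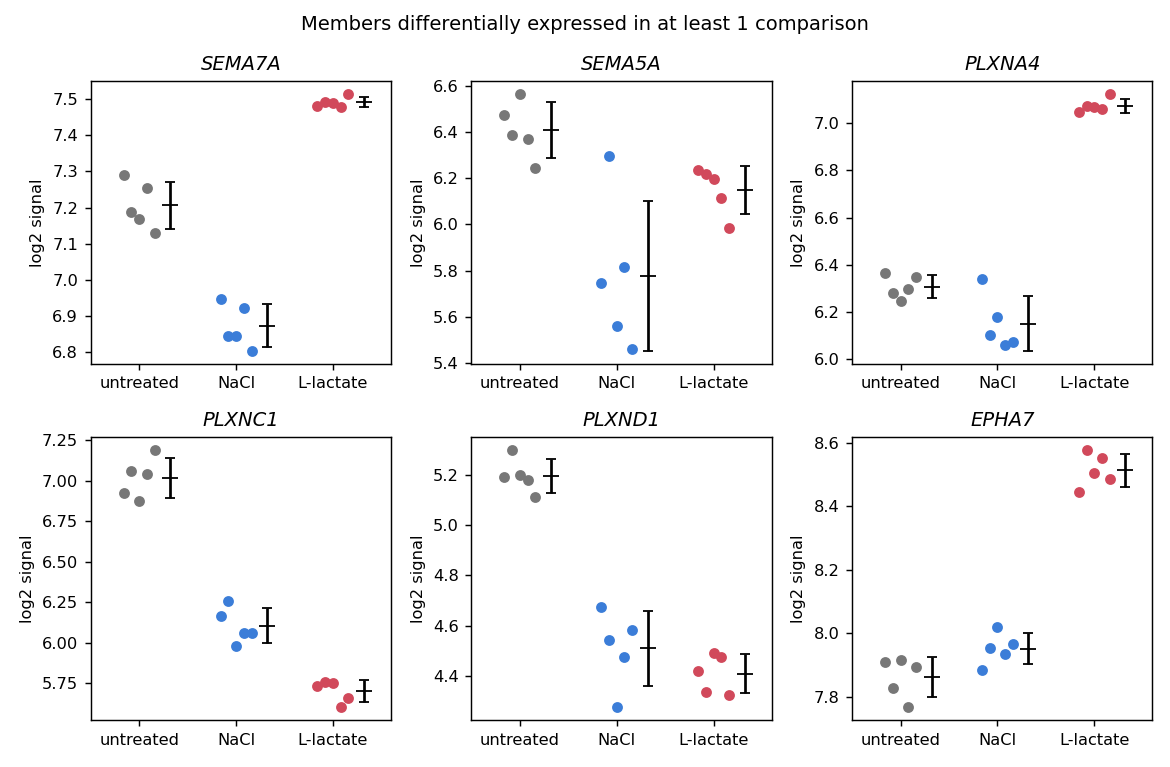
Log2 signal (y axis, a separate range for each gene that does not start at 0) of the 6 genes that were differentially expressed in at least 1 comparison, by group (x axis). Coloured points are single arrays and black bars the mean ± SD of 5 arrays; L-lactate arrays stand above both controls for SEMA7A, PLXNA4 and EPHA7, and untreated arrays above both salts for PLXNC1 and PLXND1.

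Of the 7 secreted class 3 semaphorins, none reached the fold threshold in any comparison, and SEMA3C came closest. SEMA3C, which binds neuropilins together with plexin A or D receptors, read 6.92, 7.02, 7.08, 6.98 and 7.06 with L-lactate, 7.56, 7.68, 7.58, 7.60 and 7.47 with NaCl and 7.30, 7.26, 7.40, 7.26 and 7.31 in untreated cells. The groups did not overlap, but the order was reversed from that of SEMA7A, with NaCl highest and L-lactate lowest. The log2 difference of L-lactate to NaCl was -0.57 (SE 0.04, 1.48-fold, adjusted p = 2.1e-07 by limma), and it was -0.29 to untreated cells.

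SEMA3A, the founding repulsive semaphorin of vertebrates, was higher than in untreated cells with both salts, by 0.22 with L-lactate and by 0.25 with NaCl, and between the salts the 95% interval of the difference was -0.12 to 0.05. SEMA3D lay lower with both salts, by 0.22 with L-lactate and by 0.45 with NaCl. SEMA3F, a ligand of neuropilin 2, was higher with L-lactate than with NaCl and than in untreated cells (0.26 in both, adjusted p = 0.0019 and 0.0015 by limma). In the reference annotation, SEMA3D, SEMA3A and SEMA3E follow each other with 0 other protein-coding genes between neighbours. SEMA3E, which binds plexin D1 without a neuropilin, did not pass in any comparison, and its largest difference was -0.12.

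The membrane semaphorins of class 4 moved in different directions. SEMA4B was lower with L-lactate by 0.38 against NaCl and by 0.31 against untreated cells, without overlap of the arrays in either comparison. SEMA4C, a ligand of plexin B2, was higher by 0.45 and 0.24. For SEMA4D, the ligand of plexin B1, no difference passed and all 3 intervals lay between -0.13 and 0.11. SEMA6D and SEMA6A, transmembrane ligands of A-type plexins, were slightly higher with L-lactate than in both controls. SEMA6D, with the highest mean signal of the semaphorin clusters, read 10.29, 10.35, 10.31, 10.28 and 10.28 with L-lactate against 10.07, 10.07, 10.10, 10.09 and 10.08 with NaCl. Its log2 difference was 0.22 (SE 0.03, adjusted p = 3.1e-05 by limma), and SEMA6A differed by 0.21 (adjusted p = 4.2e-04). Signals of different clusters depend on their probes, so the order of genes by signal is no order of transcript amounts.

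Among the receptors, the plexins held 3 of the 6 genes with a change above 1.5-fold. PLXNA4, a receptor for class 6 semaphorins and, with neuropilin 1, for SEMA3A, rose with L-lactate. L-lactate arrays read 7.05, 7.07, 7.07, 7.06 and 7.13, against 6.34, 6.10, 6.18, 6.06 and 6.07 with NaCl and 6.36, 6.28, 6.25, 6.29 and 6.35 in untreated cells. Every L-lactate array was above every control array, whereas NaCl replicate 1 lay within the untreated range. The increase was 0.93 against NaCl (SE 0.05, 1.90-fold, adjusted p = 3.6e-09 by limma) and 0.77 against untreated cells (SE 0.05, 1.70-fold, adjusted p = 1.6e-08). The other A-type plexins differed less. PLXNA2 was higher by 0.27 against NaCl (adjusted p = 0.0026), and PLXNA1 by 0.21 against untreated cells (adjusted p = 0.040).

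PLXNC1, the plexin that binds SEMA7A, had the largest change of the 47 genes and went down with both salts. Untreated arrays read 6.92, 7.06, 6.88, 7.04 and 7.19. NaCl arrays read 6.16, 6.26, 5.98, 6.06 and 6.06, and L-lactate arrays 5.73, 5.76, 5.75, 5.60 and 5.65. The ranges were separate in all 3 comparisons. PLXNC1 fell by 1.32 with L-lactate (SE 0.06, 2.50-fold, adjusted p = 1.1e-09 by limma) and by 0.92 with NaCl (SE 0.06, 1.89-fold, adjusted p = 2.2e-07). At equal sodium, L-lactate was lower than NaCl by 0.40 (SE 0.06, adjusted p = 2.1e-04), so that this gene and its ligand SEMA7A differed in opposite directions between L-lactate and NaCl.

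PLXND1, the receptor of SEMA3E that is best known from endothelial cells, followed the same course against untreated cells. Its untreated arrays read 5.19, 5.30, 5.20, 5.18 and 5.11, the NaCl arrays 4.67, 4.54, 4.28, 4.48 and 4.58 and the L-lactate arrays 4.42, 4.34, 4.49, 4.48 and 4.33. Both salts were below every untreated array and overlapped with each other. PLXND1 fell by 0.79 with L-lactate (SE 0.06, adjusted p = 2.3e-07 by limma) and by 0.69 with NaCl (SE 0.06, adjusted p = 4.0e-06). Between the salts the log2 difference was -0.10 with a 95% interval of -0.24 to 0.04 (adjusted p = 0.33). The B-type plexins PLXNB1 and PLXNB2 did not pass in any comparison. For PLXNB2, a receptor of class 4 semaphorins, the interval between L-lactate and NaCl was -0.13 to 0.02.

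In these bulk cultures, fewer cells of a type and less RNA per cell cannot be told apart. Granulosa markers were measured in every group, with means over the 15 arrays of 9.11 for FSHR, 7.49 for FOXL2 and 10.4 for INHA. Of the 10 granulosa markers, CYP19A1 and AMH fell with L-lactate against NaCl by 1.22 and 0.74, and CYP19A1 fell against untreated cells by 0.77. At the adjusted p alone, 7 of the 10 were lower with L-lactate than with NaCl and 1 was higher. Among them FOXL2 differed by -0.58, INHA by -0.41 and FSHR by -0.29. The list mean was 8.24 to 8.34 with L-lactate, 8.58 to 8.69 with NaCl and 8.48 to 8.57 in untreated cells. All 9 endothelial markers had a mean of at most 5.24, with PECAM1 at 3.27 and CDH5 at 3.40, while the median of the arrays was 4.52 to 4.60. None of them changed above 1.5-fold beside PLXND1. At the adjusted p alone, VWF was higher with L-lactate than with NaCl (0.31) and than in untreated cells (0.57, 1.48-fold). VWF was also higher with NaCl than in untreated cells (0.25), and CLDN5 was lower with L-lactate than in untreated cells (-0.22). The rest of the list did not pass. The mean log2 signal of this list was 3.86 to 3.96 with L-lactate, 3.84 to 4.00 with NaCl and 3.87 to 3.97 in untreated cells. The leukocyte marker PTPRC was at 2.77, and none of its list of 7 changed above 1.5-fold. At the adjusted p alone, CD68 was higher with L-lactate than with NaCl (0.44) and lower with NaCl than in untreated cells (-0.36). No other leukocyte marker passed. The mean of the leukocyte list was 3.89 to 4.03 with L-lactate, 3.75 to 3.86 with NaCl and 3.88 to 4.06 in untreated cells. Of 7 stromal and smooth muscle markers, COL3A1 fell above 1.5-fold with L-lactate and with NaCl against untreated cells, as PLXNC1 and PLXND1 did. TAGLN rose with both, and PDGFRA and COL1A1 rose with L-lactate. At the adjusted p alone, 4 of the 7 were lower and 2 higher with NaCl than in untreated cells. Beside COL3A1, the lower ones were COL1A1 (-0.51), DCN (-0.35) and LUM (-0.12). Between L-lactate and untreated cells 3 were higher and 3 lower, and between L-lactate and NaCl 3 were higher and 2 lower. The mean of this list was 8.06 to 8.18 with L-lactate, 7.84 to 8.11 with NaCl and 7.96 to 8.08 in untreated cells. INSL3, a theca marker with a mean of 7.26 (percentile 80.5 of the clusters), fell with both salts by 0.69 and 0.64. The other, CYP17A1, at a mean of 3.89, did not pass. For the mean of the theca list the arrays lay at 5.13 to 5.82, 5.24 to 5.66 and 5.61 to 6.20. Of 4 neural markers, MAP2 rose by 0.96 with L-lactate against NaCl, as PLXNA4 did, while NEFL, RBFOX3 and SYP had means of 2.29 to 3.56. Against untreated cells MAP2 was higher with L-lactate by 0.45 and lower with NaCl by 0.51, both below 1.5-fold. For PLXNA4 these differences were 0.77 and -0.16. The mean of the neural list was 4.00 to 4.09 with L-lactate, 3.72 to 3.89 with NaCl and 3.90 to 4.00 in untreated cells. The 4 oocyte markers had means of 3.29 or less. The part of other cell types in the results of the guidance genes was not tested.

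Around the plexins, 14 co-receptors and modulators were followed as well, and NRP2 had the largest differences among them. It codes for neuropilin 2, the co-receptor of SEMA3F, SEMA3C and vascular endothelial growth factor C. Untreated arrays read 5.69, 5.92, 5.66, 5.81 and 5.58, NaCl arrays 4.59, 4.61, 4.57, 4.47 and 4.07 and L-lactate arrays 3.70, 4.08, 3.80, 3.93 and 3.69. All arrays of both salts were below all untreated arrays, and the lowest NaCl array lay just under the highest L-lactate array. NRP2 fell by 1.89 with L-lactate (SE 0.11, 3.71-fold, adjusted p = 4.7e-09 by limma) and by 1.27 with NaCl (SE 0.11, 2.41-fold, adjusted p = 1.3e-06). Against NaCl it fell by 0.62 (adjusted p = 4.6e-04), a difference that was just short of 1.5-fold without L-lactate replicate 1 (0.58) or 5 (0.58) or without NaCl replicate 2 (0.58).

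Neuropilin 1, in contrast, was higher with both salts. NRP1 read 7.93, 7.95, 7.84, 7.86 and 7.97 with L-lactate and 7.85, 7.83, 7.81, 7.79 and 7.92 with NaCl, against 7.60, 7.55, 7.46, 7.51 and 7.60 in untreated cells. The differences to untreated cells were 0.37 and 0.29 (adjusted p = 4.1e-06 and 1.2e-04 by limma), below the fold threshold. MET, the hepatocyte growth factor receptor that also associates with B-type plexins, rose by 0.66 with L-lactate against untreated cells (1.58-fold, adjusted p = 5.4e-07) and was higher by 0.38 with NaCl. NRCAM, an adhesion molecule of the neuropilin 2 complex in mouse neurons, read 3.34 ± 0.11 with L-lactate, 2.74 ± 0.14 with NaCl and 3.35 ± 0.28 in untreated cells (SD, n = 5). It fell with NaCl by 0.62 (adjusted p = 0.0019) and rose by 0.60 from NaCl to L-lactate (adjusted p = 0.0010). Its mean of 3.14 is low among the clusters (percentile 29.3). The first call was lost without NaCl replicate 4 (0.58), untreated replicate 4 (0.53) or untreated replicate 5 (0.58), the other without L-lactate replicate 2 (0.58) or 3 (0.57) or NaCl replicate 1 (0.58) or 4 (0.57).

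**Figure D3:**
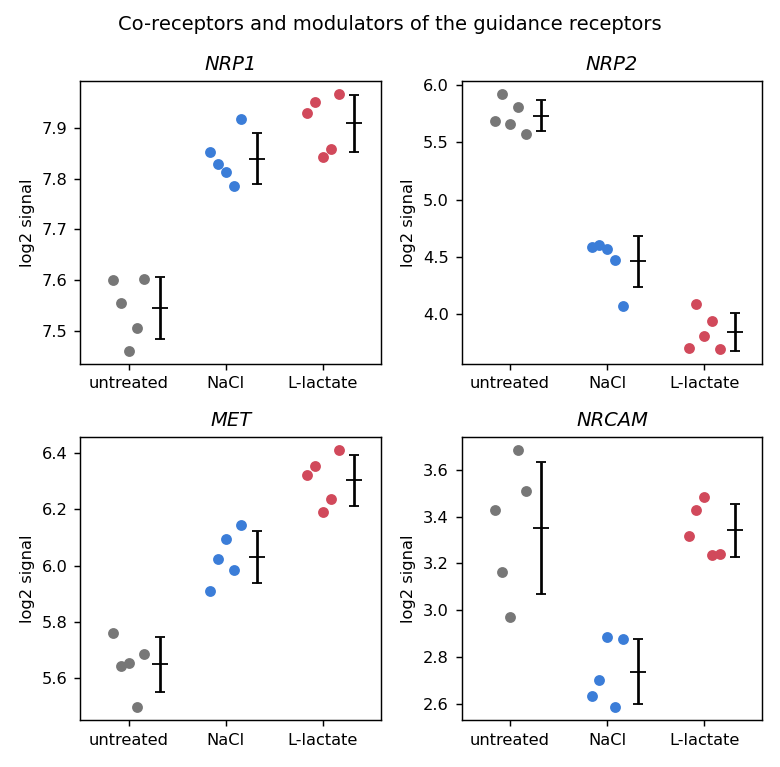
Log2 signal (y axis, a separate range for each gene that does not start at 0) of 4 genes for co-receptors and modulators by group (x axis), with single arrays as coloured points and the mean ± SD of 5 arrays in black. NRP2 stepped down from untreated (mean 5.73) to NaCl (4.46) and L-lactate (3.84), and NRP1 and MET were lowest in untreated cells.

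A further list of 51 measured genes held mostly cytoplasmic partners of these receptors, together with PLXDC1 and PLXDC2, which code for transmembrane proteins with a plexin-like domain. In this list only DPYSL3 was differentially expressed, and only between L-lactate and untreated cells. This is 1.96% of the list, beside 3.27% of all clusters and 3.96% of those with a single symbol. DPYSL3 belongs to the collapsin response mediators that bind microtubules and actin downstream of semaphorins. DPYSL3 read 8.78 ± 0.09 with L-lactate, 8.21 ± 0.07 with NaCl and 8.11 ± 0.02 in untreated cells (SD, n = 5), and it rose by 0.67 against untreated cells (1.59-fold, adjusted p = 2.8e-08 by limma). The difference to NaCl was 0.57, just below the fold threshold. At the adjusted p alone, 13 of the 51 were higher and 3 lower with L-lactate than with NaCl, which is 31.4% of the list beside 27.3% of the clusters with a single symbol. Against untreated cells 23 were higher and 6 lower (PLXDC2 among them), which is 56.9% beside 33.3%. TIAM1, an activator of the GTPase RAC1, was among the higher ones with 0.54 against NaCl (adjusted p = 3.8e-06). Against untreated cells TIAM1 was lower with NaCl (adjusted p = 7.65e-04 by limma, -0.37 to -0.31 over the alternative settings). With L-lactate it was higher than untreated by less (adjusted p = 0.0124, 0.18 to 0.24 over these settings). LIMK1, the kinase that inactivates the actin-severing cofilin, was higher by 0.31 against NaCl and by 0.49 against untreated cells, and RRAS, a GTPase on which plexins act, by 0.35 and 0.33.

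No ephrin changed above 1.5-fold, but 5 of the 8 were higher with L-lactate than with NaCl at the adjusted p and none was lower, beside 10.7% and 11.5% of all clusters. EFNA1, EFNA4 and EFNA5 belong to the GPI-anchored A type. EFNA4 had the largest of these differences and read 4.91, 5.22, 4.94, 4.88 and 5.11 with L-lactate, 4.48, 4.69, 4.62, 4.56 and 4.76 with NaCl and 4.62, 4.60, 4.62, 4.35 and 4.44 in untreated cells. All L-lactate arrays were above all control arrays. The difference was 0.39 to NaCl (SE 0.08, adjusted p = 0.0013 by limma) and 0.48 to untreated cells (adjusted p = 1.5e-04).

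EFNA1, the usual ligand of EPHA2, was graded over the groups. It read 6.33, 6.26, 6.10, 6.26 and 6.20 with L-lactate, 6.05, 6.04, 6.07, 6.04 and 6.04 with NaCl and 5.84, 5.73, 5.80, 5.73 and 5.91 in untreated cells. The ranges did not overlap in any comparison. L-lactate was above untreated cells by 0.43 (SE 0.04, adjusted p = 2.5e-06 by limma) and NaCl by 0.25 (adjusted p = 0.0013). EFNA1, EFNA3 and EFNA4 follow each other in the reference annotation with 0 other protein-coding genes between neighbours, and EFNA3, between the others, did not pass in any comparison (0.00 to NaCl with a 95% interval of -0.14 to 0.14). For EFNA5, both clusters gave the same log2 difference of 0.18 between L-lactate and NaCl. EFNA2 went the other way and was lower with L-lactate than in untreated cells by 0.32 (adjusted p = 5.3e-04).

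The transmembrane B-type ephrins EFNB1 and EFNB2 were both higher with L-lactate than with NaCl, by 0.26 and 0.28, but differed from untreated cells in opposite directions. EFNB1 was above untreated cells by 0.47 with L-lactate (adjusted p = 2.2e-06 by limma) and by 0.20 with NaCl. EFNB2, a marker of arteries and the ligand of EPHB4, read 6.30, 6.25, 6.36, 6.49 and 6.45 in untreated cells, 5.78, 5.95, 5.76, 5.79 and 5.83 with NaCl and 6.08, 6.07, 6.07, 6.08 and 6.18 with L-lactate. Its groups did not overlap, with NaCl lowest and L-lactate in between. NaCl was lower than untreated by 0.55 (SE 0.05, 1.46-fold, adjusted p = 3.2e-06), which is the largest difference of an ephrin. For EFNB3 no difference passed, and the interval between L-lactate and NaCl was -0.40 to 0.12, the widest reach of any of the 20 genes that never passed.

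Of the EPH receptors, EPHA7 rose with L-lactate. L-lactate arrays read 8.45, 8.58, 8.50, 8.55 and 8.49, NaCl arrays 7.88, 7.95, 8.02, 7.93 and 7.96 and untreated arrays 7.91, 7.83, 7.92, 7.77 and 7.89. All L-lactate arrays were above both controls, whose ranges overlapped. The increase against untreated cells was 0.65 (SE 0.04, 1.57-fold, adjusted p = 9.7e-09 by limma). Against NaCl the difference was nearly as large with 0.56 (SE 0.04, 1.48-fold, adjusted p = 6.7e-08), but it missed the fold threshold.

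EPHA2, a receptor common in epithelial cells, showed the same order of groups as its ligand EFNA1. It read 6.94, 6.98, 6.99, 7.01 and 6.99 with L-lactate, 6.58, 6.64, 6.55, 6.64 and 6.52 with NaCl and 6.41, 6.43, 6.37, 6.36 and 6.58 in untreated cells. L-lactate arrays were above all others, and untreated replicate 5 reached into the NaCl range. L-lactate differed by 0.40 from NaCl and by 0.55 from untreated cells (SE 0.04 each, adjusted p = 5.4e-06 and 1.2e-07 by limma). EPHA4, which binds ephrins of both types, was highest with NaCl. Its NaCl arrays read 7.50, 7.48, 7.55, 7.57 and 7.53, the L-lactate arrays 7.33, 7.30, 7.25, 7.36 and 7.47 and the untreated arrays 7.12, 7.05, 7.10, 6.96 and 7.17. The groups were separate, and NaCl was above untreated cells by 0.45 (adjusted p = 7.7e-06) and L-lactate by 0.26 (adjusted p = 3.2e-04). EPHA3, EPHB2 and EPHB4 did not pass in any comparison. For EPHB4, the partner of EFNB2 and a marker of veins, the interval between L-lactate and NaCl was -0.05 to 0.18. EPHB3 was lower with L-lactate than in untreated cells by 0.18 (adjusted p = 0.042).

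**Figure D4:**
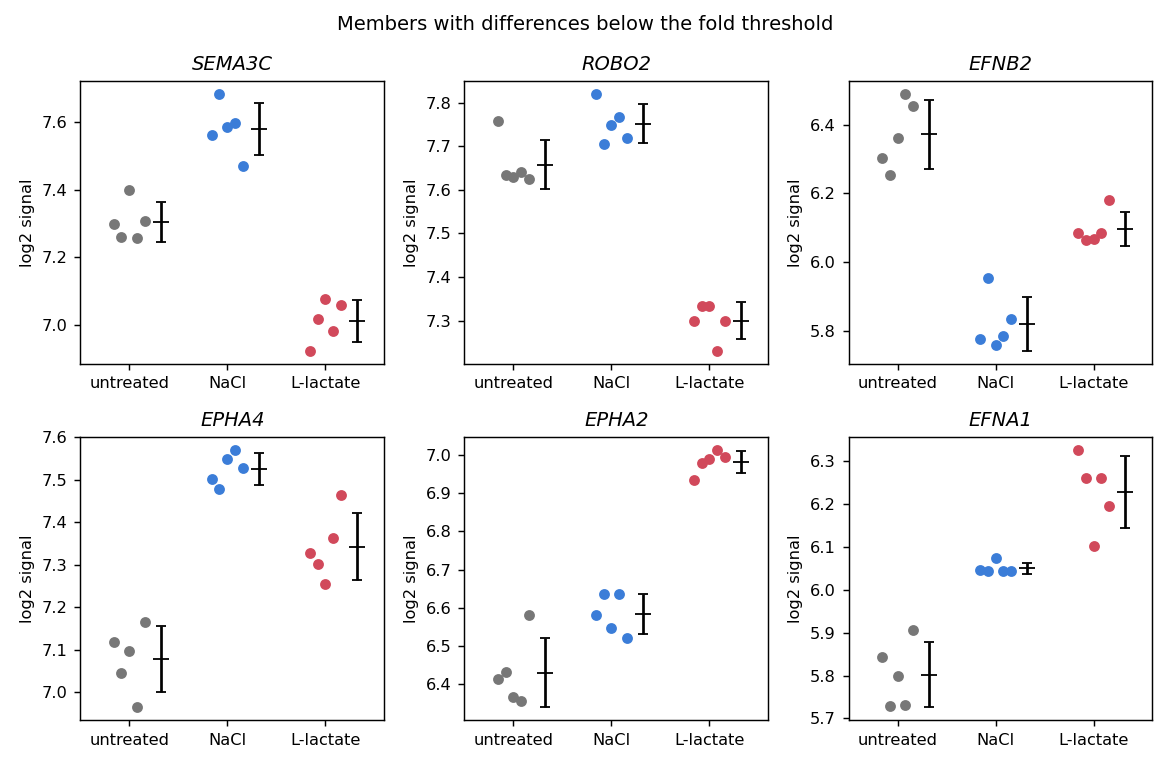
Log2 signal (y axis, a separate range for each gene that does not start at 0) of 6 genes whose differences were below 1.5-fold, by group (x axis), with single arrays as coloured points and the mean ± SD of 5 arrays in black. NaCl was highest for SEMA3C (mean 7.58) and EPHA4 (7.53) and lowest for EFNB2 (5.82), and L-lactate was highest for EPHA2 (6.98) and EFNA1 (6.23) and lowest for ROBO2 (7.30).

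Of the 3 SLITs and 3 ROBOs, ROBO2 and SLIT2 passed the adjusted p in at least 1 comparison, both with lower signals in L-lactate. Between L-lactate and NaCl this was 1 of 3 in each family (33.3%), beside 22.2% of all clusters and 27.3% of those with a single symbol. Between L-lactate and untreated cells 1 ROBO and 0 SLITs passed, beside 27.1% of all clusters. With so few genes these shares are close to the background. ROBO2 read 7.30, 7.33, 7.33, 7.23 and 7.30 with L-lactate, 7.82, 7.71, 7.75, 7.77 and 7.72 with NaCl and 7.76, 7.63, 7.63, 7.64 and 7.63 in untreated cells. Every L-lactate array was below every control array, and NaCl and untreated arrays overlapped. L-lactate was lower by 0.45 against NaCl (SE 0.04, 1.37-fold, adjusted p = 2.6e-07 by limma) and by 0.36 against untreated cells (SE 0.04, adjusted p = 1.9e-06). ROBO1, which lies next to ROBO2 in the reference annotation with 0 protein-coding genes between them, differed by 0.03 between L-lactate and NaCl (95% interval -0.11 to 0.17). ROBO4, the endothelial member of the family, had a mean of 3.60 and did not pass in any comparison.

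Of the ligands, SLIT2 had the lowest mean signal of the 47 genes with 2.09, which is low among the clusters (percentile 14.2). SLIT2 was lower with L-lactate than with NaCl by 0.28 (adjusted p = 0.013 by limma). Its L-lactate arrays read 1.93, 1.92, 2.02, 1.84 and 1.92 and the NaCl arrays 2.02, 2.49, 2.07, 2.25 and 2.20, so that the ranges met at 2.02. SLIT1 and SLIT3 did not pass, with differences of 0.13 each between L-lactate and NaCl. SLIT1 varied most between the L-lactate arrays, from 3.84 to 4.41, and its ranges overlapped between all groups.

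The 20 genes that passed in no comparison were 9 semaphorins, 2 plexins, 2 ephrins, 3 EPH receptors, 2 SLITs and 2 ROBOs. Their largest log2 difference was 0.18 in either direction, and no 95% interval reached beyond 0.40, which is inside the 1.5-fold threshold. Of the 27 other genes, EFNA1, EFNB1 and EPHA2 were graded from untreated cells over NaCl up to L-lactate. For EPHA2 the step from untreated cells to NaCl (0.15, adjusted p = 0.028 by limma) passed in 13 of 22 alternative settings, and for EFNB1 in 21. A further 3, SEMA7A, SEMA4C and PLXNA4, were highest with L-lactate and lowest with NaCl. Of these, the difference of NaCl to untreated cells was near the threshold for SEMA4C (-0.21, adjusted p = 0.034, passing in 12 of 22 settings) and PLXNA4 (-0.16, adjusted p = 0.0496, passing in 4). Another 6 were higher with L-lactate than in either control without a difference between the controls that passed the test (SEMA3F, SEMA6A, SEMA6D, EFNA4, EFNA5 and EPHA7). Only PLXNC1 was graded in the opposite direction. SEMA3D and EFNB2 were lowest with NaCl and in between with L-lactate. These classes rest on the adjusted p alone and on comparisons that share arrays. They were counted for the guidance genes only, so no share of all clusters stands beside them.

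**Figure D5:**
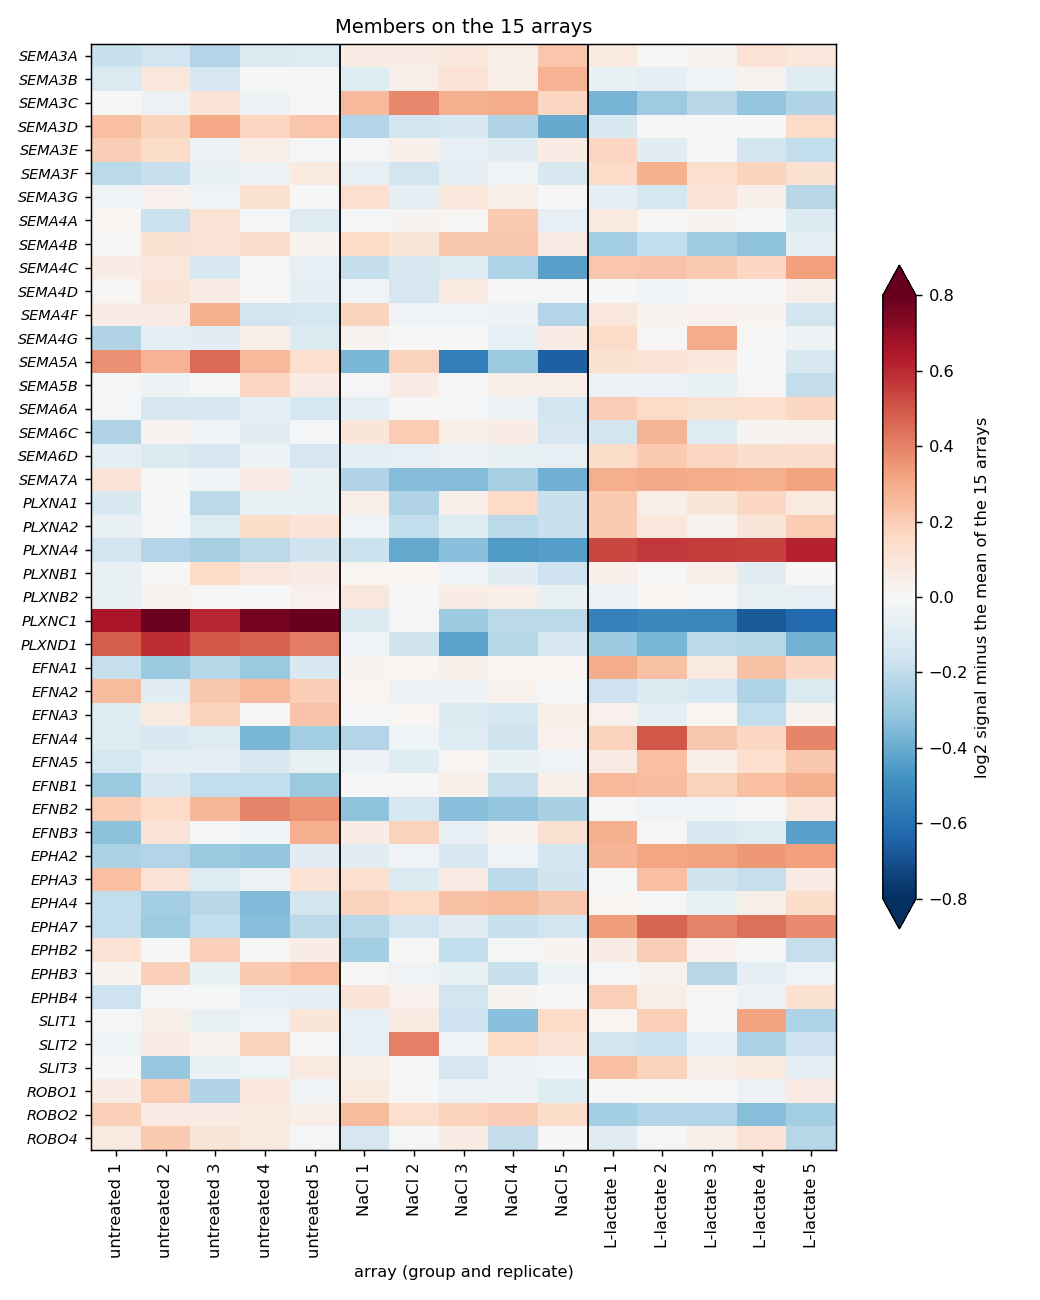
Log2 signal of each of the 47 genes (rows) on each of the 15 arrays (columns, by group and replicate), minus the mean of the gene over all arrays, with red above and blue below that mean and colours saturated beyond 0.8. PLXNC1 and PLXND1 are high on all 5 untreated arrays, PLXNA4, EPHA7 and EPHA2 on all 5 L-lactate arrays.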

How the data were processed

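GC from 15 cultures in 3 groups were measured on Bovine Gene 1.0 ST arrays, 1 array per culture. The log2 values were deposited by the authors after background reduction, normalization and RMA summary per transcript cluster in the Affymetrix Expression Console (version 1.4.1.46) and were used as deposited. Detection calls, scan dates and scanner files were not used here, so batches and signal over background could not be tested, and the number of arrays limits the precision. For the RNA isolation, a NucleoSpin kit is given in the labels but an RNeasy kit in the paper's methods. Nothing in the sources used here says whether replicates came from separate cell pools, so the p-values cover the spread between these cultures alone, which may be technical.

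A single limma model (version 3.58.1, R 4.3.3) of the 3 groups over 15 arrays was fitted to all 26773 clusters, and p-values were adjusted by Benjamini-Hochberg over every cluster. The threshold for differential expression, a fold change above 1.5 at an adjusted p under 0.05, follows the paper's methods, which used an ANOVA. Symbols were taken from GEO's annotation of the platform, where 18457 clusters carry 1 symbol, 688 several and 7628 have no entry, and 45 of the 47 genes were found in the bovine RefSeq table by gene ID. This table (assembly ARS-UCD2.0) served only for names and the order of neighbours, since no genome build is given for the array in the sources used here. Genes were named by a rule: values of every array for genes called in at least 1 comparison, and in each family the gene with the highest mean signal and the one with the largest difference among those not called. Of the further pathway genes, those called were named. Array values of other genes, and TIAM1, LIMK1, RRAS and NRP1, were chosen after their values were seen. The 47 genes, the lists of 65 further pathway genes (14 co-receptors and modulators, 51 mostly cytoplasmic partners) and the cell type markers were chosen with earlier results of these data known.

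As alternatives, each comparison was fitted on its own 10 arrays, with and without moderation of the variance. Others were a trended and robust variance prior, a replicate block, arrays centred on their medians, a filter that left 17848 clusters of higher mean signal (42 of the 47 genes), other fold thresholds, the other cluster of a gene and leaving out each array in turn. Counting clusters with identical values once was added after the data were seen. The procedure was tested on simulated data. Equal replicate numbers are not said to mark a shared pool. Arrays of a group correlated at 0.9955 to 0.997, and none held the values of another. Figures were drawn with Python 3.11.15 and matplotlib 3.10.9.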

Additional observations from a re-analysis of the deposited data

Results flagged for a closer look

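In 147 groups of 5 arrays (49 clusters in 3 groups), 9 held an array whose gap to the nearest other array was above Dixon's critical value. Chance flags about 1 in 20 groups. In NaCl treated cells these were SEMA3A with 9.15 on replicate 5 (nearest array 9.01), EFNA1 with 6.07 on replicate 3 (nearest 6.05, in a group that spans very little), EFNB1 with 5.88 on replicate 4 (nearest 6.07) and the weaker cluster of EPHB2 with 3.42 on replicate 1 (nearest 3.25). Among the L-lactate arrays, SEMA4F read 5.40 on replicate 5 (nearest 5.57), PLXNB1 4.83 on replicate 4 (nearest 4.92) and EFNB2 6.18 on replicate 5 (nearest 6.09). In untreated cells, EFNA2 read 4.06 on replicate 2 (nearest 4.35) and ROBO2 7.76 on replicate 1 (nearest 7.64). The L-lactate arrays of EFNB2 stayed between the ranges of the other groups with this array included.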

How the results depend on the processing

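The fold threshold decided the counts. Without it, 22 genes of the guidance families differed between L-lactate and NaCl, 24 between L-lactate and untreated cells and 14 between NaCl and untreated cells. Of the 65 further pathway genes 22, 39 and 16 differed, or 33.8%, 60% and 24.6%, beside 22.2%, 27.1% and 11.9% of all clusters. With the threshold, 2, 3 and 2 of the 65 were called, or 3.08%, 4.62% and 3.08%, beside 1.89%, 3.27% and 1.15% of all clusters. With a fold change above 2 the numbers were 0, 1 (PLXNC1) and 0 for the guidance genes, and 0, 1 and 1 (NRP2) for the further genes. For this threshold no share of all clusters is given, so these numbers have no background. Leaving out each array in turn gave 2 to 3, 4 to 5 and 2 to 3 guidance genes. For the further pathway genes it gave 1 to 3 between L-lactate and NaCl, 3 to 3 between L-lactate and untreated and 1 to 3 between NaCl and untreated cells. Leaving out clusters of low mean signal removed NRCAM from the test and left 1 further pathway gene in each comparison with NaCl. With the replicate number as a block the counts were 2, 4 and 3 for the guidance genes and 2, 3 and 2 for the further genes, as without it, and the block ended no call above 1.5-fold. At the adjusted p alone, the block left 22, 23 and 11 guidance genes. It ended SEMA4C (adjusted p = 0.062), PLXNA4 (0.0703) and EPHA2 (0.0633) between NaCl and untreated cells and PLXNA1 (0.0512) between L-lactate and untreated cells. The deviations of arrays with the same number correlated at -0.0653 to 0.0655, and 0 of 15 pairs were above 0.1. By the mean of these correlations, 7 of 15 arrays were closest to their own number. These values cannot decide whether equal numbers mark a shared pool, since most clusters may carry little of such an effect.

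Of 16 single results above 1.5-fold, 12 kept direction and call in every alternative run and 0 reversed. The others are SEMA5A and NRCAM (NaCl against untreated) and NRP2 and NRCAM (L-lactate against NaCl). Among the settings that tested it, each was lost only by leaving out 1 of the arrays named beside it. The filter on mean signal left NRCAM untested. Of the differences that passed the adjusted p alone, 2 of 22, 2 of 24 and 4 of 14 were lost in at least 1 alternative, and 0 changed sign. Least stable was PLXNA4 between NaCl and untreated cells (adjusted p = 0.0496 and 4 of 22 alternatives passing), followed by EPHB3 between L-lactate and untreated cells (8 of 22).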
